A study of Mus musculus with 2 samples.

Results

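Complement is a plasma and tissue cascade of innate immunity, and 8 of its genes were followed across the cell types of a mouse glioblastoma. They were chosen by gene symbol as components and receptors of the cascade, and all 8 were found among the 19059 genes of the deposited matrices. They are the genes of the C1q chains (C1qa, C1qb and C1qc), 2 cascade proteins (C4b and C3), 2 receptors of activation fragments (C3ar1 and C5ar1) and 1 inhibitor (Serping1).

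The study placed mouse glioblastoma stem cells (mGSC) of genotype Trp53+/- and Nf1+/- in the right striatum of female C57BL/6 mice aged 6 to 8 weeks, and took cells from whole tumors by single-cell RNA sequencing. The vehicle group received the carrier by oral gavage daily for 7 days. The Xevinapant group received 50 mg/kg/day by the same route for the same 7 days. Xevinapant is a SMAC-mimetic, a small molecule that blocks the inhibitor of apoptosis proteins. Both groups carried the same implanted cells in immunocompetent hosts. The malignant class below was gated by glial lineage markers, with no copy number step and no gate for host glia. The part of host glia in this class was not tested. The study counted 4 tumors per group, while the labels list 1 pooled sample per group with 4 matrices each, and nothing in them says that a matrix is 1 mouse. The labels also give each group its own pool and batch date, and name total RNA for vehicle and polyA RNA for Xevinapant, so that treatment and batch cannot be told apart here. The names of the Xevinapant matrices carry the word Vehicle, and the sample label was followed.

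In the classical pathway, C1q binds antibody or a target surface and lets its proteases cleave C4 and C2, which leads to cleavage of C3 and C5. The small fragments C3a and C5a act on G protein-coupled receptors on myeloid cells, and C1 inhibitor, the product of Serping1, blocks the C1 proteases. In brain, microglia are known as the main makers of C1q, and C3 and C4 are known from reactive glia and stromal cells.

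The 8 matrices held 56943 barcodes, 4505 to 14728 each, with 71835789 to 300206053 unique molecular identifiers (UMIs, which count RNA molecules) per matrix. The assay reads fixed cells through gene probes, and the number of probes per gene is not given in the sources used here, so levels were compared within a gene and not between genes. Vehicle matrices 1 and 3, Xevinapant matrices 1 and 2 and Xevinapant matrices 3 and 4 were each close in cell makeup, with a chi-square of 1.04 to 1.28 per degree of freedom, against 5.86 to 32.0 for the 9 other pairs within a group. Their expression in malignant cells still differed, by 1.45 to 3.02 times the counting error, against 5.73 to 9.47 times for the 9 other pairs, and C3 in malignant cells stood at 3.66 CPM (UMIs of a gene per 1000000 UMIs) in Xevinapant 1 and at 13.9 CPM in Xevinapant 2. Each close pair was counted as 1 sample, which left vehicle 1+3, vehicle 2, vehicle 4, Xevinapant 1+2 and Xevinapant 3+4. Where 5 values are given in a row below, they stand in that order. Nothing in the labels says that these samples come from separate animals, so p-values measure the spread between them, which may be technical. Between matrices of the same number in the 2 groups, 1413 full barcodes were shared, and in 1152 of them the shallower copy held under 5% of the UMIs of the deeper. Leaving out every shared barcode changed no call on a member gene.

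Cell classes were gated by marker UMIs that include none of the 8 genes. Of 50669 barcodes kept, 36854 were malignant cells, 800 microglia, 512 macrophages, 378 fibroblasts, 277 endothelial cells, 241 neutrophils, 138 monocytes, 137 T cells and 87 pericytes and mural cells, and 11012 met no gate. The labels name the cell type as GBM stem cell, while the samples held these host cells too. Macrophages numbered 52, 12, 22, 326 and 100, so the vehicle values of this class rest on few cells. Markers of other classes were found in every class, and their levels are given below beside the results they touch. In malignant cells the 9 microglia markers summed to 156 to 223 CPM and the 8 macrophage markers to 7.64 to 36.6 CPM.

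The genes of the C1q chains lie side by side on the minus strand of chromosome 4, C1qb at chr4:136880129-136886187, C1qc at chr4:136889804-136893065 and C1qa at chr4:136895917-136898803 (GRCm38, the mm10 build of the files). The 250 bases before the start sites of C1qb and C1qc are shown because these chains moved together across cell classes. They come from RefSeq on GRCm38.p6, minus strand, at chr4:136886201-136886450 and chr4:136892915-136893164, and promoters of 5 of the 8 genes were matched there. Capitals mark GAGGAA or its reverse complement TTCCTC, the core of the site bound by PU.1, a factor of myeloid cells.
C1qb: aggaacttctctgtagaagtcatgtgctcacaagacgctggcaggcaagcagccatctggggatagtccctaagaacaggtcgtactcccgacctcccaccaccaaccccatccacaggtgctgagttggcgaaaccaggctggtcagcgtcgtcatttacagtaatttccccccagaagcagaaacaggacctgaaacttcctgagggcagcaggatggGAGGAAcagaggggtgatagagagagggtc
C1qc: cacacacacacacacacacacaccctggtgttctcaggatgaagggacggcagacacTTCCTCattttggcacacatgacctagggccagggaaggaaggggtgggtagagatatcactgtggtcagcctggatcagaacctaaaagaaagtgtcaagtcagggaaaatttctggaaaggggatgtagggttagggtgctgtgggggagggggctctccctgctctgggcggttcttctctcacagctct
Of the 5 windows, these 2 held the letters, and those of C3, C3ar1 and C5ar1 held 0 matches. Each of the 2 held 1 match, starting at base -30 before the RefSeq start site in C1qb and at base -193 in C1qc. The 2 annotations place the start of C1qc differently, so that part of its window lies within the gene coordinates given above. Both strands were searched, and 23.2% of 32851 promoter windows of this length (7639) held the letters. The match is a description of the sequence and not a measured site.

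C1q transcripts were highest in microglia. C1qa, the A chain, stood in microglia at 7013, 6591 and 7940 CPM in vehicle and 8377 and 7468 CPM in Xevinapant, a mean of 7478 ± 711.5 CPM (SD, n = 5). In macrophages C1qa stood at 3214, 2369, 3577, 3957 and 3274 CPM (3278 ± 587.6, n = 5). Every microglia value lay above every macrophage value. In monocytes, C1qa reached 329 to 630 CPM over the 4 samples with at least 10 monocytes, and in malignant cells 9.40 to 23.2 CPM.

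The B and C chains followed the same order. C1qb stood at 7270 to 8585 CPM in microglia and 3336 to 5174 CPM in macrophages, and C1qc at 2898 to 3589 and 1204 to 1664 CPM. By edgeR's quasi-likelihood test with the sample as a block, C1qa was 2.11 times higher in microglia than in macrophages (log2 1.08, SE 0.15, Benjamini-Hochberg adjusted p = 2.259e-05). C1qb differed less (log2 0.68, SE 0.15, edgeR adjusted p = 0.002338), and C1qc as much as C1qa (log2 1.08, SE 0.15, edgeR adjusted p = 1.976e-05). All 3 chains were higher in microglia in 5 of 5 samples. The chains did not keep one ratio: of all C1q UMIs, C1qa took 40.7% in microglia and 36.2% in macrophages, and C1qb 42.2% and 48.5%.

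**Figure D1:**
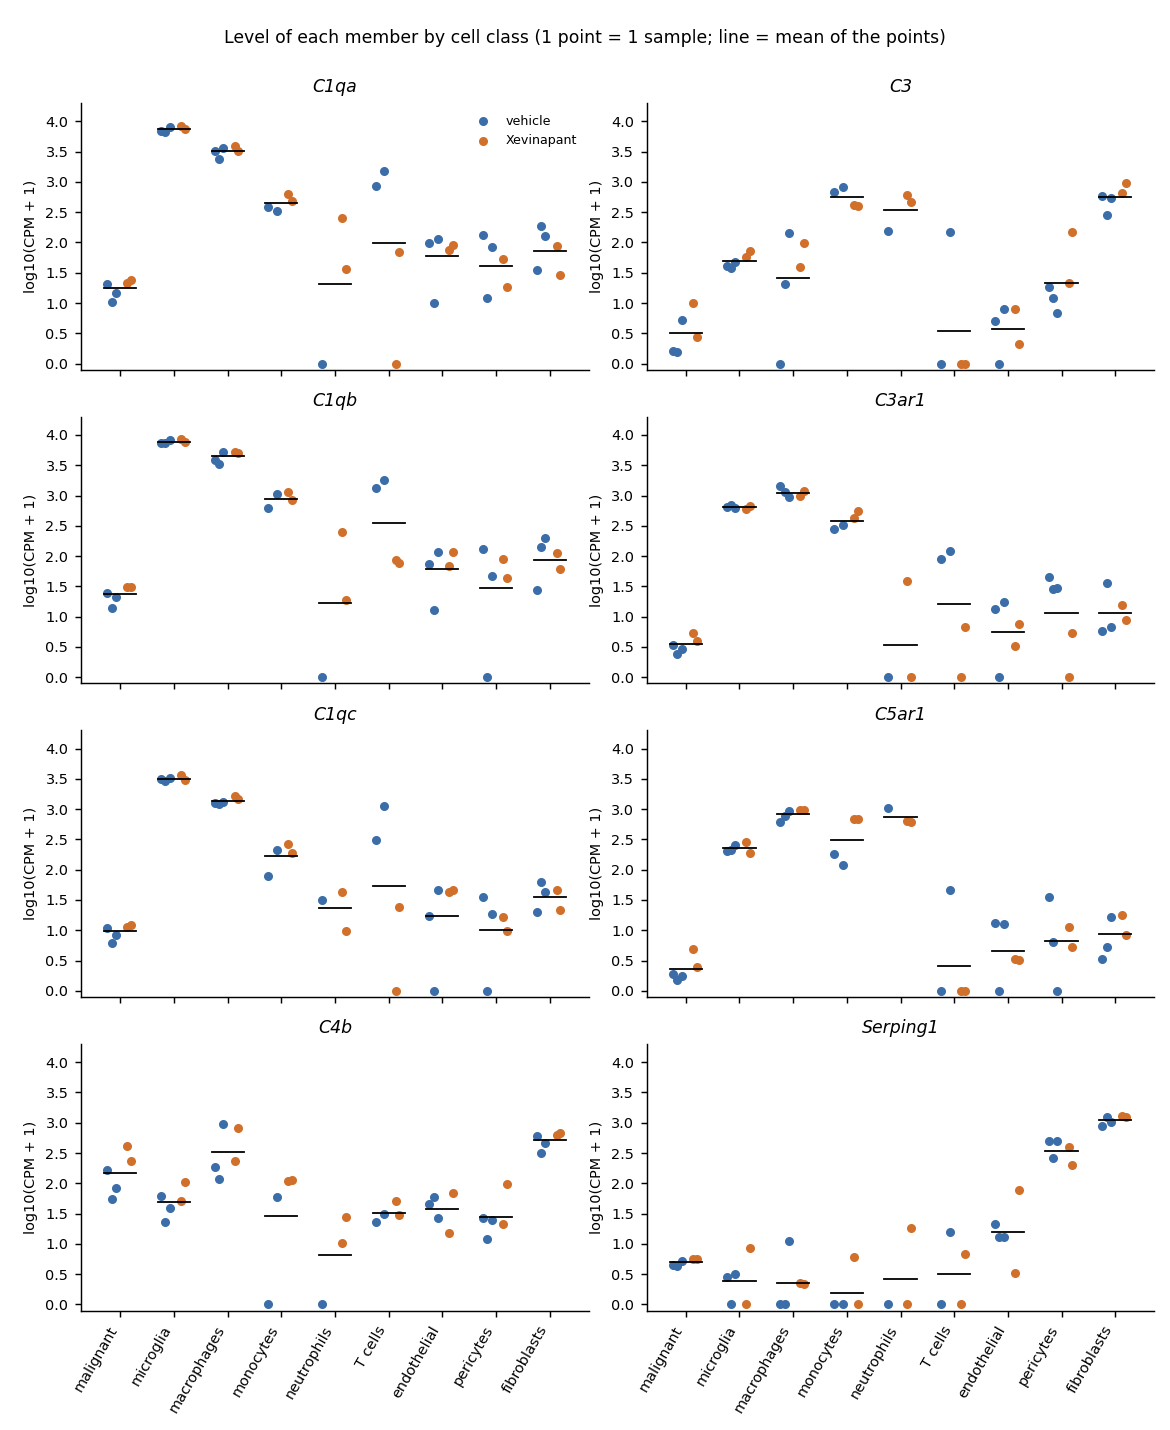
Level of each of the 8 genes (log10 of CPM + 1) in 9 cell classes, 1 point per sample, vehicle and Xevinapant in separate colors, with a line at the mean of the points. C1qa, C1qb and C1qc were highest in microglia, C3ar1 in macrophages and Serping1 in fibroblasts, while C4b and C3 were spread over stromal, myeloid and, for C4b, malignant cells.

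Single cells gave the same order. After thinning each cell to 3000 UMIs, which left out 111 of 800 microglia and 138 of 512 macrophages as too shallow, 99.9% ± 0.22 of microglia and 71.5% ± 12.2 of macrophages had a C1qa UMI (SD over samples, n = 5). The share was 3.07% in malignant cells, 8.12% in endothelial cells and 12.6% in fibroblasts. The part of free RNA or of other cells in these shares was not tested. Unthinned shares were 99.7% in microglia, 73.8% in macrophages and 10.1% in malignant cells, at median depths of 7535, 6211 and 14020 UMIs. UMIs of all 3 chains were found together in 98.7% ± 0.90 of microglia, 67.2% ± 6.68 of macrophages and 12.01% ± 2.46 of monocytes (n = 4). Fibroblasts, at 9.27% ± 6.22 (n = 5), overlapped with monocytes in this share. Nearly every microglial cell thus held transcripts of the complete set.

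Malignant cells had a low level but were so numerous that they held 10.1% ± 3.24 of all C1qa UMIs of a sample (n = 5). Microglia held 47.3% ± 12.1 and macrophages 9.61% ± 11.8, and barcodes that met no gate held 32.0% ± 4.82. The macrophage part was 5.97%, 2.87%, 1.43%, 30.3% and 7.54%, so that its Xevinapant mean rests on Xevinapant 1+2, and the microglia part was 42.5%, 59.8%, 58.6%, 31.0% and 44.6%. The 1513 unassigned barcodes that came nearest to the microglia gate alone held 12.6% of all C1qa UMIs.

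**Figure D2:**
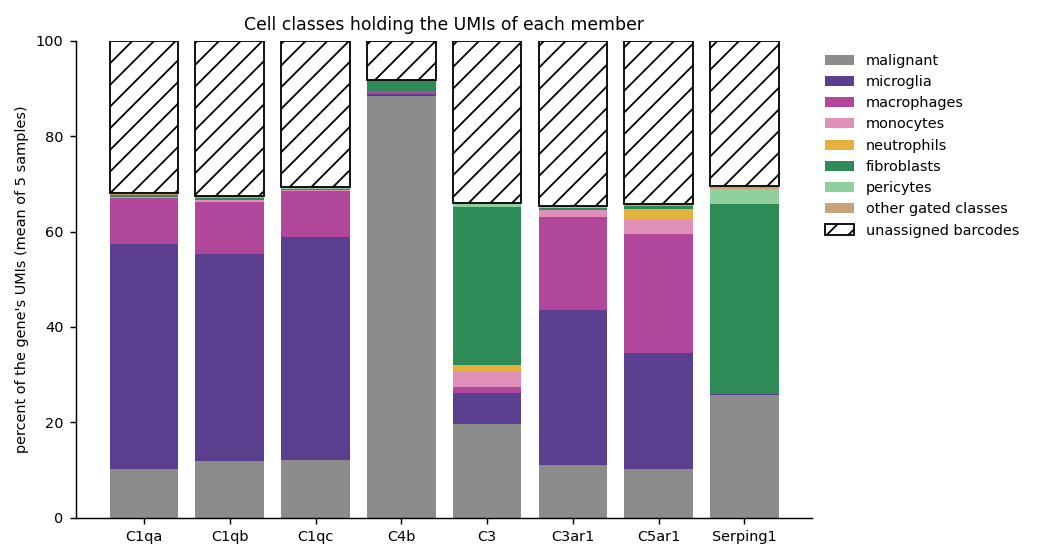
Share (percent) of the UMIs of each gene that fell in each cell class, mean of 5 samples, with barcodes that met no gate hatched. Malignant cells held 88.4% of C4b UMIs, near their share of all UMIs. Microglia held 47.3% of C1qa UMIs and fibroblasts 40.0% of Serping1 UMIs, the last raised by Xevinapant 1+2, where it was 69.6%.

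C4b, the C4 protein cleaved by the C1 proteases, was the only gene of the 8 with most of its UMIs in the malignant class. It lies at chr17:34728380-34743882 on the minus strand (GRCm38). Its near-identical copy C4a, at chr17:34809092-34823464, is not among the genes measured, so a C4b count may hold C4a transcripts and its level is uncertain in that sense. Malignant cells held 88.4% ± 2.58 of C4b UMIs (n = 5). They also held 687379573 of the 811195703 UMIs of all genes in kept barcodes, so the C4b share was near their share of all UMIs. On average C4b stood at 187.6 CPM in malignant cells and 176.6 CPM over all kept barcodes.

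The C4b level in malignant cells was 165, 53.8, 84.0, 404 and 231 CPM. Both Xevinapant values lay above the 3 vehicle values, as did those of 19.1% of 14474 genes in this class. Among tumor states, the MES-like (mesenchymal-like) cells stood highest on average, at 321, 171, 153, 704 and 584 CPM, and in 4 of 5 samples, while in vehicle 4 the AC-like cells were higher. The NPC-like (neural progenitor-like) cells stood lowest at 66.1, 28.7, 44.6, 129 and 79.6 CPM. OPC-like (oligodendrocyte progenitor-like) cells had 207, 52.3, 65.1, 371 and 227 CPM, and AC-like (astrocyte-like) cells 162, 105, 172, 192 and 277 CPM. AC-like and OPC-like cells overlapped widely, and their difference did not pass the test (log2 0.30, SE 0.31, edgeR adjusted p = 0.4248). The differences of MES-like and NPC-like cells from the other states were not tested.

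In host cells, C4b reached 612, 321, 469, 631 and 670 CPM in fibroblasts (540.5 ± 144.5 CPM, n = 5). Fibroblasts were 18.4 times above endothelial cells of the same samples (log2 4.20, SE 0.31, edgeR adjusted p = 2.29e-07, higher in 5 of 5 samples). The 9 fibroblast markers, such as the collagen genes, gave 88.8 to 144 CPM in macrophages. Macrophages themselves ranged widely in C4b, from 183, 118 and 948 CPM in vehicle to 229 and 812 CPM in Xevinapant, while microglia stood at 22.4 to 103 CPM. Microglia were lower than macrophages taken as 1 class in 5 of 5 samples (log2 -2.93, SE 0.29, edgeR adjusted p = 4.594e-07). This did not hold for macrophages with an Arg1 UMI, described next. After thinning, 44.3% ± 6.31 of fibroblasts, 22.5% ± 16.6 of macrophages and 19.2% ± 10.5 of malignant cells had a C4b UMI, against 6.84% ± 3.63 of endothelial cells (n = 5).

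The spread of macrophage C4b followed a split within the class, which was made after its values were seen and is given with no test. Arg1, the gene of arginase 1, is one of the gate's markers. Barcodes without it passed the gate on the 7 other markers alone, which partly sets the levels of those markers given below. In macrophages with an Arg1 UMI (363 cells) C4b stood at 11.1, 0, 78.4, 97.3 and 91.0 CPM. In those without (148 cells in the 4 samples that had more than 1 such cell) it stood at 999 and 2618 CPM in vehicle and 1031 and 2460 CPM in Xevinapant, with no overlap. The C4b values with Arg1 overlapped with those of microglia, 22.4 to 103 CPM, and the values without Arg1 lay above them. C1qa was also higher without Arg1, 5845 ± 946.7 CPM (n = 4) against 2653 ± 576.4 CPM (n = 5). C1qb was 7866 ± 458.8 CPM without Arg1 (7394 to 8487 CPM) against 3712 ± 656.7 CPM with it, and the first range overlapped that of microglia. C1qc was 2308 ± 382 against 1169 ± 235 CPM. C3ar1 was lower without Arg1, 751 ± 63.5 against 1222 ± 224 CPM. C5ar1 differed little, 806 ± 204 against 869 ± 185 CPM. Of the 7 other markers of the gate, Mrc1 (3407 against 557 CPM), Folr2 (1313 against 250 CPM), Cd163 (613 against 40.1 CPM) and F13a1 (2079 against 954 CPM) were higher on average without Arg1 with no overlap of the samples, as was Clec4n (614 against 334 CPM). Ms4a7 (903 against 722 CPM) and Pf4 (2379 against 3410 CPM) overlapped, with the mean of Pf4 lower without Arg1. They were also shallower, with a median of 3502 UMIs against 7643. At 3000 UMIs per cell, 57.5% of those without Arg1 (69 cells in 2 samples) and 9.26% of those with it (289 cells in 4 samples) had a C4b UMI, means that rest on different sets of samples.

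**Figure D3:**
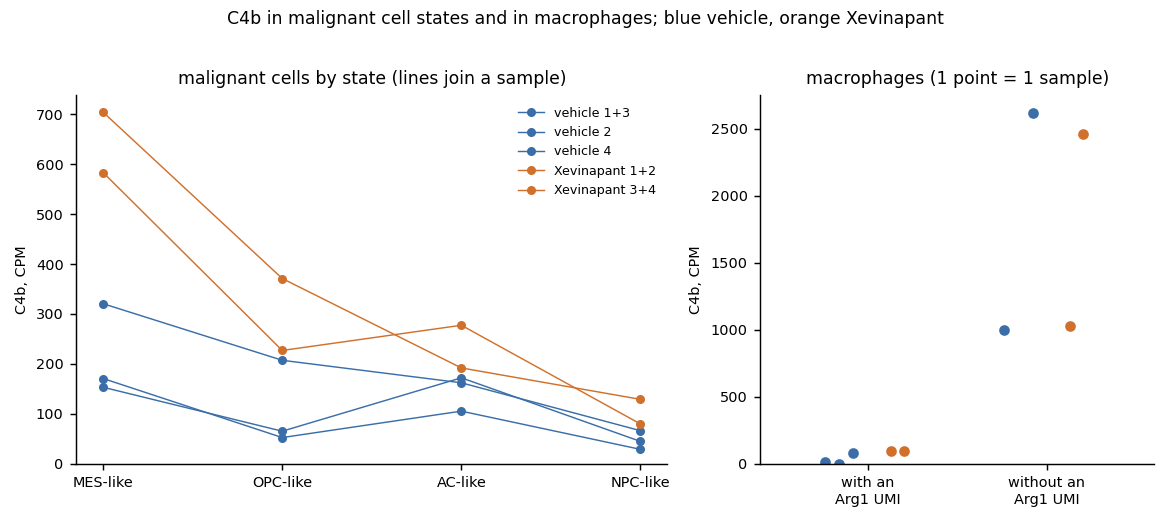
C4b level (CPM) in the 4 tumor states, with the points of a sample joined, and in macrophages with and without an Arg1 UMI, 1 point per sample. Xevinapant samples lay above vehicle samples in each tumor state, where 19.1% of genes did so in malignant cells as a whole. Macrophages without an Arg1 UMI lay at 999 to 2618 CPM against 0 to 97.3 CPM with one.

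C3, the central protein of the cascade, lies at chr17:57203970-57228136 on the minus strand (GRCm38). Its levels were highest in fibroblasts, monocytes and neutrophils. Fibroblasts had 580, 286, 548, 648 and 961 CPM (605 ± 242 CPM, n = 5), monocytes 688 and 823 CPM in vehicle and 412 and 398 CPM in Xevinapant. In the 3 samples with at least 10 neutrophils, C3 stood at 152 CPM in vehicle 1+3 and at 599 and 456 CPM in Xevinapant. The ranges of these 3 classes overlapped, and all lay above macrophages, at 0 to 144 CPM, and microglia, at 36.9 to 71.9 CPM. Malignant cells had 0.57 to 9.07 CPM, but by their number held 11.6% to 29.95% of C3 UMIs, against 14.7% to 44.2% in fibroblasts and 12.9% to 49.7% in barcodes that met no gate.

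C3 also differed between stromal classes. Fibroblasts stood at 605 CPM and endothelial cells at 3.84 CPM on average (log2 7.94, SE 0.38, edgeR adjusted p = 5.95e-09), and endothelial cells held 8 C3 UMIs in all. Another 60 barcodes that met no gate but came nearest to the endothelial list held 944 C3 UMIs, 7.62% of all, so the gap holds for gated cells. Monocytes exceeded macrophages in 4 of 4 samples (log2 macrophages over monocytes -3.00, SE 0.39, edgeR adjusted p = 7.054e-06). Microglia and macrophages were not told apart (log2 -0.07, SE 0.33, edgeR adjusted p = 0.9211). After thinning, 60.4% ± 14.1 of monocytes (n = 3) and 33.6% ± 10.2 of fibroblasts (n = 5) had a C3 UMI, against 0.499% ± 0.286 of malignant cells, and unthinned shares were 68.3%, 46.0% and 2.12%.

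The receptors followed the myeloid classes in different orders. C3ar1, the receptor of C3a, lies at chr6:122847138-122856161 (GRCm38, minus strand). It stood in macrophages at 1419, 1145, 928, 992 and 1177 CPM and in microglia at 657, 694, 612, 601 and 672 CPM. The 2 classes did not overlap, and C3ar1 was lower in microglia in 5 of 5 samples (log2 -0.92, SE 0.14, edgeR adjusted p = 9.412e-05). Macrophages without an Arg1 UMI, at 660.5 to 800.7 CPM, did overlap with microglia. Monocytes came next, at 280 and 329 CPM in vehicle and 419 and 562 CPM in Xevinapant, 2.92 times below macrophages (log2 macrophages over monocytes 1.55, SE 0.22, edgeR adjusted p = 1.978e-05). The remaining classes stayed lower, with malignant cells at 1.45 to 4.46 CPM.

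C5ar1, the receptor of C5a, lies at chr7:16246743-16259540 (GRCm38, minus strand). Macrophages had 607, 760, 928, 948 and 962 CPM, and neutrophils 1030 CPM in vehicle 1+3 and 637 and 605 CPM in Xevinapant. Macrophages and neutrophils overlapped. Microglia stood at 202, 207, 251, 282 and 191 CPM, below macrophages in 5 of 5 samples (log2 -2.02, SE 0.15, edgeR adjusted p = 1.975e-08). C5ar1 in microglia was 0.247 times its level in macrophages, and C3ar1 0.527 times. In thinned cells, 91.8% ± 2.40 of macrophages and 79.8% ± 2.87 of microglia had a C3ar1 UMI, and 85.1% ± 7.73 and 38.9% ± 4.43 a C5ar1 UMI, while malignant cells had 0.733% and 0.454% (n = 5). Unthinned, the shares of malignant cells were 3.53% and 2.28%.

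**Figure D4:**
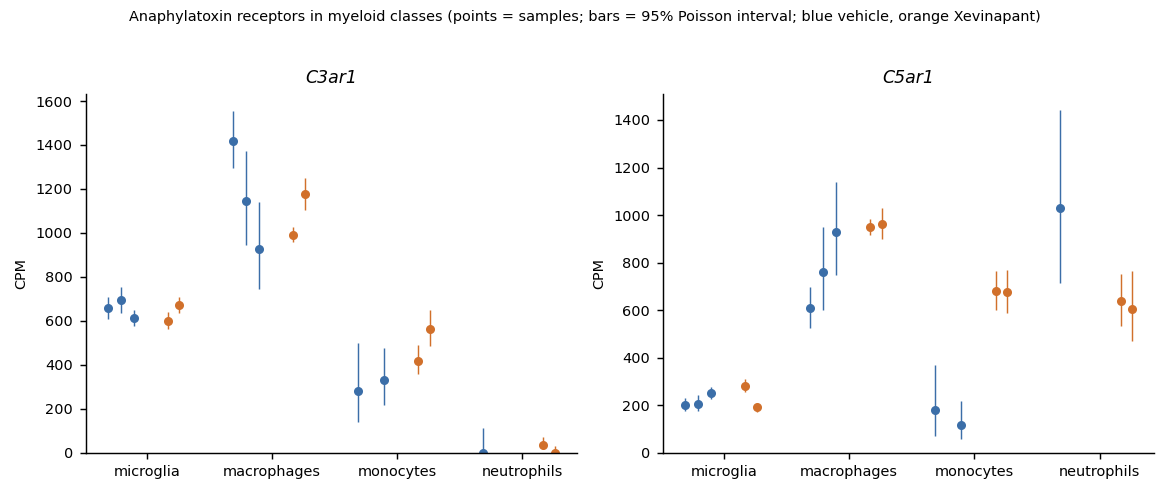
Level (CPM) of C3ar1 and C5ar1 in macrophages, microglia, monocytes and neutrophils, 1 point per sample with its 95% Poisson interval, which covers counting error only. C5ar1 stood at 117 and 178 CPM in vehicle monocytes and at 675 and 681 CPM in Xevinapant monocytes.

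Serping1, the gene of C1 inhibitor, had its highest levels in stromal cells. It lies at chr2:84765387-84775444 (GRCm38, minus strand). Fibroblasts had 880, 1248, 1032, 1286 and 1230 CPM (1135 ± 173 CPM, n = 5) and pericytes and mural cells 494, 259, 491, 391 and 199 CPM (367 ± 134 CPM, n = 5). These classes did not overlap with each other or with endothelial cells, at 2.31 to 75.4 CPM. Fibroblast markers were found in 94.25% of pericytes and mural cells, at a median of 142 UMIs per 10000, against 111 for their own list. The part of fibroblast RNA in their Serping1 level was not tested. Of all Serping1 UMIs, fibroblasts held 28.6%, 27.9%, 34.0%, 69.6% and 39.6% and the far more numerous malignant cells 30.7%, 29.2%, 37.3%, 9.26% and 22.1%, the larger part in each vehicle sample. Fibroblasts were 72.1 times above endothelial cells (log2 6.17, SE 0.47, edgeR adjusted p = 3.068e-07). After thinning, 77.1% ± 3.88 of fibroblasts and 56.7% ± 7.67 of pericytes and mural cells (n = 4) had a Serping1 UMI, against 1.10% ± 0.16 of malignant cells. Within the tumor, AC-like cells had 7.80, 7.62, 8.57, 13.7 and 10.8 CPM and OPC-like cells 0.92 to 3.12 CPM, and this small level differed in 5 of 5 samples (log2 2.51, SE 0.16, edgeR adjusted p = 6.252e-06).

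In counts, 6 of the 7 members tested differed between microglia and macrophages (3 higher and 3 lower in microglia), where 26.8% of all genes tested did. Between macrophages and monocytes 7 of 7 differed (6 higher in macrophages), against 24.1% of genes. Between fibroblasts and endothelial cells 3 of 6 differed, all higher in fibroblasts, against 36.8%, and the 3 not past the threshold were the C1q chains. C3 and Serping1 fell under the filter on low counts in endothelial cells taken alone. They were tested here through fibroblasts, where they were high, so this count and its direction were partly set by the filter. Between AC-like and OPC-like cells 1 of 8 differed, Serping1, against 64.5%. Serping1 fell under the filter on low counts in both myeloid comparisons, as did C3ar1 and C5ar1 in fibroblasts and endothelial cells.

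Other genes of the pathway, 46 measured of 47 listed, were set beside the members. Between fibroblasts and endothelial cells, 9 of the 15 tested were higher and 3 lower in fibroblasts (36.8% of all genes were called in either direction), with a median log2 difference of 2.17 against -0.05 for all genes. The C1 protease genes C1s1 (log2 6.82) and C1ra (log2 6.49) and C2 (log2 4.58) led, and the lower genes were Cd93 (log2 -7.00), an endothelial receptor, Clu (log2 -2.65), the fluid-phase regulator clusterin, and Susd4 (log2 -1.63). Fibroblasts, the class with most Serping1, thus also exceeded endothelial cells in transcripts of the C1 proteases that its product inhibits. Between macrophages and monocytes, where 24.1% of all genes were called, 6 of 14 were higher and 2 lower. The higher were led by the terminal component C6 (log2 7.19, SE 1.34), the C3b receptor Vsig4 (log2 7.10, SE 1.43) and the lectin Fcna (log2 5.53, SE 0.455). With these errors their sizes are rough and their order is not settled. The lower were the integrin chain Itgax (log2 -1.80) and Clu (log2 -1.78).

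Between microglia and macrophages, where 26.8% of all genes were called, 3 of 18 pathway genes were higher, Itgax (log2 2.69), C1qbp (log2 0.76) and Cfb (log2 0.45), the alternative pathway factor B. Another 11 were lower, led by Vsig4 (log2 -5.92, SE 0.82), the surface regulator Cd55 (log2 -5.90, SE 0.95) and C6 (log2 -5.57, SE 0.68), whose order is not settled either. Between AC-like and OPC-like cells, 13 of 27 were higher and 3 lower, near the share of all genes called in either direction (64.5%), with a median log2 difference of 0.40 against -0.02 for all genes. The higher genes were led by Clu (log2 3.59), C1ra (log2 2.86) and Vtn (log2 2.55), the gene of vitronectin, and the lower were Cd93 (log2 -0.75), Susd4 (log2 -0.40) and C1qbp (log2 -0.28). All of these passed edgeR's quasi-likelihood test after Benjamini-Hochberg adjustment over all genes.

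The comparison of Xevinapant with vehicle was made within each class by edgeR's quasi-likelihood test on summed UMIs. Only T cells gave a member past the threshold. There C1qa, C1qb and C1qc, the 3 members tested, were lower in Xevinapant, where 1.17% of genes tested were called. They passed the filter on low counts through the vehicle samples, where they were high. C1qc, for one, had 14 and 75 UMIs in vehicle 1+3 and vehicle 4, against 0 and 4 in Xevinapant. The other members fell under the filter, so this count was partly set by it. No member was called in endothelial cells (0 of 4, against 0.656% of genes), macrophages (0 of 7, against 0.0452%), monocytes (0 of 7, against 0.0392%), microglia (0 of 7), fibroblasts (0 of 7), pericytes and mural cells (0 of 3), malignant cells (0 of 8), any of the 4 tumor states (0 of 8 each) or the barcodes that met no gate (0 of 8). In the last 9 of these comparisons 0% of genes were called. None of the other pathway genes tested was called in any class.

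At an unadjusted p under 0.05, edgeR gave 4 of 8 members in malignant cells (1699 of 14436 genes, 11.8%), 7 of 8 in AC-like, 4 of 8 in MES-like, 3 of 8 in OPC-like and 2 of 8 in NPC-like cells (11.1%, 13.7%, 12.8% and 5.76% of genes). It gave 3 of 3 in T cells (7.75% of genes), a count partly set by the filter on low counts. It also gave 5 of 7 in monocytes (10.7%), 2 of 7 in microglia (6.14%) and 1 of 7 in fibroblasts (5.81%). It gave 0 in macrophages, endothelial cells, pericytes and mural cells and unassigned barcodes (7.72%, 13.6%, 3.6% and 3.84% of genes). DESeq2 called 2 members in malignant cells, C5ar1 and C4b, and 284 of 13801 genes (2.06%). It called 1 in MES-like, 1 in AC-like cells and 1 in monocytes (2%, 1.26% and 2.7% of genes), 2 in T cells (0.655%), and 0 elsewhere. There it called 1.33% of genes in OPC-like, 0.215% in NPC-like and 1.47% in endothelial cells, 0.947% in fibroblasts, 0.0345% in macrophages, 0.00692% in microglia, 0% in pericytes and mural cells and 0.229% in unassigned barcodes. Neutrophils, dendritic cells, NK cells and B cells had too few cells in vehicle for a test, and erythrocytes were not tested.

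The C1q chains within their main classes were close between the groups. In microglia the log2 difference of C1qa was 0.15 (SE 0.17, edgeR adjusted p = 0.9188), and in macrophages 0.24 (SE 0.25, edgeR adjusted p = 0.8648). C1qb and C1qc differed by 0.09 and 0.10 in microglia and by 0.30 and 0.31 in macrophages on the log2 scale. The receptor C3ar1 differed by -0.04 (SE 0.15) in microglia and -0.12 (SE 0.26) in macrophages. For these genes a change of the size of the standard errors would not have been detected.

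In T cells, C1qa stood at 856 and 1535 CPM in vehicle 1+3 and vehicle 4 and at 0 and 69.0 CPM in Xevinapant, with vehicle 2 left out for its 6 cells. These 4 samples did not overlap between the groups (log2 -4.70, SE 0.72, edgeR adjusted p = 0.01894). C1qb fell by 4.37 on the log2 scale (SE 0.49, edgeR adjusted p = 0.002937) and C1qc by 5.41 (SE 0.85, edgeR adjusted p = 0.01894). The vehicle sample left out held 0 C1q UMIs, which allows a level of up to 258 CPM, so with it the vehicle range would take in the Xevinapant values. The UMIs behind the difference sat in a few cells. In vehicle 1+3, 106 of 114 C1q UMIs were in 1 of 13 cells, and in vehicle 4, 272 of 298 were in 1 of 26 cells. The Xevinapant samples held 5 and 29 C1q UMIs in 18 and 74 cells.

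Markers of other cells moved with it. The 8 macrophage markers summed to 285 and 492 CPM in the vehicle T cells, with 5 and 6 of the 8 found, and to 16.8 and 40.3 CPM in the Xevinapant T cells, with 1 and 3 found. The 9 microglia markers summed to 65.8 and 253 CPM against 16.8 and 69.0 CPM. In T cells with no UMI of either list, 0 C1q UMIs were found in 9 cells of vehicle 1+3 and 6 in 22 cells of vehicle 4, against 5 in 16 and 8 in 59 cells of Xevinapant. The difference in these cells could not be tested, since vehicle 1+3 kept fewer than 10 of them. With a stricter gate, a relative rate of 0.2, the 3 chains fell under the filter on low counts in T cells, so that none was tested. Over the 12 alternatives that gave a value, the log2 difference of C1qa ran from -9.16 to -4.10, that of C1qb from -4.62 to -4.08 and that of C1qc from -8.44 to -4.16. Their edgeR or DESeq2 adjusted p ran from 1.433e-12 to 0.09597, from 5.369e-11 to 0.005537 and from 3.312e-15 to 0.5616. Where a sample is left out here or in monocytes, 1 group has a single sample, which the fit assumes to vary like the others.

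C5ar1 in monocytes was the member nearest to the threshold elsewhere. It stood at 178 and 117 CPM in vehicle 1+3 and vehicle 4 and at 681 and 675 CPM in Xevinapant, with no overlap (log2 2.36, SE 0.32, edgeR adjusted p = 0.05162, DESeq2 adjusted p = 0.001384). Over the 12 alternatives its adjusted p, by edgeR or DESeq2, ran from 2.228e-09 to 0.1444. The vehicle values rest on 10 and 20 cells, and vehicle 2, left out, had 2 C5ar1 UMIs in 2 monocytes. The 8 macrophage markers summed to 739 and 1469 CPM in vehicle monocytes and 1949 and 2001 CPM in Xevinapant monocytes, with Cd163 at 0 in all 4, and the 10 neutrophil markers to 280 and 505 against 477 and 598 CPM, with Ly6g and Retnlg at 0 in all 4. The part of these cells in the C5ar1 difference was not tested.

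The treatment difference of C5ar1 was itself lower in macrophages than in monocytes (log2 -2.05, SE 0.42, edgeR adjusted p = 0.04366), 1 of 7 members tested, against 0.189% of genes. It rests on the 4 samples with both classes. Without Xevinapant 1+2, vehicle 1+3, vehicle 4 or Xevinapant 3+4 in turn the log2 difference ran from -2.51 to -1.39 and its edgeR adjusted p from 0.08403 to 0.6334. Each of these fits has 1 group with a single sample, assumed to vary like the others, and rests on fewer samples. No member was called in the same test between microglia and macrophages (0 of 7, against 0.0501% of genes), fibroblasts and endothelial cells (0 of 6, against 0%) or AC-like and OPC-like cells (0 of 8, against 0%), with 0 members at an unadjusted p under 0.05 in these 3 by edgeR (5.67%, 5.37% and 8.82% of genes). C3 in monocytes went the other way, from 688 and 823 to 412 and 398 CPM (log2 -0.84, SE 0.24, edgeR adjusted p = 0.2502).

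C4b in malignant cells differed by 1.63 on the log2 scale (SE 0.44, edgeR adjusted p = 0.3981), and in MES-like cells by 1.58 (SE 0.30, edgeR adjusted p = 0.2756). The sample values did not overlap in malignant cells or in any of the 4 tumor states. In malignant cells 19.1% of 14474 genes were higher in Xevinapant without overlap, and this share was not counted in the states. The 4 states come from the same 5 samples, so they are not separate results. In thinned malignant cells, 12.7% in vehicle and 29.1% in Xevinapant had a C4b UMI (exact permutation p = 0.2, two-sided). The fibroblast markers in malignant cells summed to 129, 39.7, 102, 283 and 101 CPM, which overlapped between the groups. The neutrophil markers summed to 3.46, 3.31, 2.42, 9.28 and 7.96 CPM and the macrophage markers to 13.2, 7.64, 9.79, 36.6 and 15.8 CPM, both without overlap. C5ar1 in malignant cells, at 0.50 to 3.91 CPM, differed by 1.87 on the log2 scale (SE 0.48, edgeR adjusted p = 0.3981). The part of those other cells in these differences was not tested.

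Over all kept barcodes of a tumor, 7 of the 8 genes were higher in both Xevinapant samples than in all 3 vehicle samples, where 23.6% of 15174 genes were. C4b stood at 161, 52.3, 86.1, 369 and 214 CPM (2.93 times higher on average). C5ar1 stood at 7.73, 3.96, 5.56, 52.2 and 10.9 CPM (5.49 times), and Serping1 at 9.84, 9.96, 10.5, 39.3 and 16.6 CPM (2.77 times). For each of the 7 genes the exact two-sided permutation test gave p = 0.1, the smallest that 3 samples against 2 allow. Over every barcode in the files, with no filter, 4 of the 8 genes (C1qb, C4b, C5ar1 and Serping1) kept the groups apart, where 20.6% of 15462 genes did with Xevinapant higher, while C1qa, C1qc, C3ar1 and C3 overlapped (exact permutation p = 0.2 each). With each matrix taken by itself, the 3 C1q chains overlapped between the groups too.

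C1qa stood at 136.5, 80.7, 120, 350 and 143 CPM over all kept barcodes (2.19 times higher on average), and over every barcode it was 1.97 times higher on average. Xevinapant 1+2 was far above the other 4 samples, and Xevinapant 3+4 was close to vehicle 1+3. Without Xevinapant 1+2 the difference between the group means fell to 30.8 CPM for C1qa, 39.4 for C1qb, 11.6 for C1qc, 115 for C4b, 5.77 for C3, 5.68 for C3ar1, 5.19 for C5ar1 and 6.54 for Serping1, and without Xevinapant 3+4 it was 237 CPM for C1qa, 270 for C4b, 46.5 for C5ar1 and 29.2 for Serping1. C3 was the exception, at 4.21, 1.72, 12.9, 50.4 and 12.04 CPM, where vehicle 4 lay above Xevinapant 3+4 (exact permutation p = 0.2). In such sums, more cells of a type and more RNA per cell cannot be told apart. Macrophages were 0.596%, 0.179%, 0.175%, 3.83% and 0.707% of kept barcodes and fibroblasts 0.470%, 0.224%, 0.469%, 2.19% and 0.544%, while microglia were 1.42% to 1.71%. Within malignant cells, too, 7 of 8 genes did not overlap and were higher in Xevinapant, where 19.1% of 14474 genes were, and C3 again overlapped. There edgeR called 0 of 8 members. The C1q chains, C3ar1 and C5ar1, which are among the 7, stood at only 0.50 to 30.4 CPM in these cells. The macrophage markers in the same cells did not overlap between the groups either, and their part in this count was not tested.

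**Figure D5:**
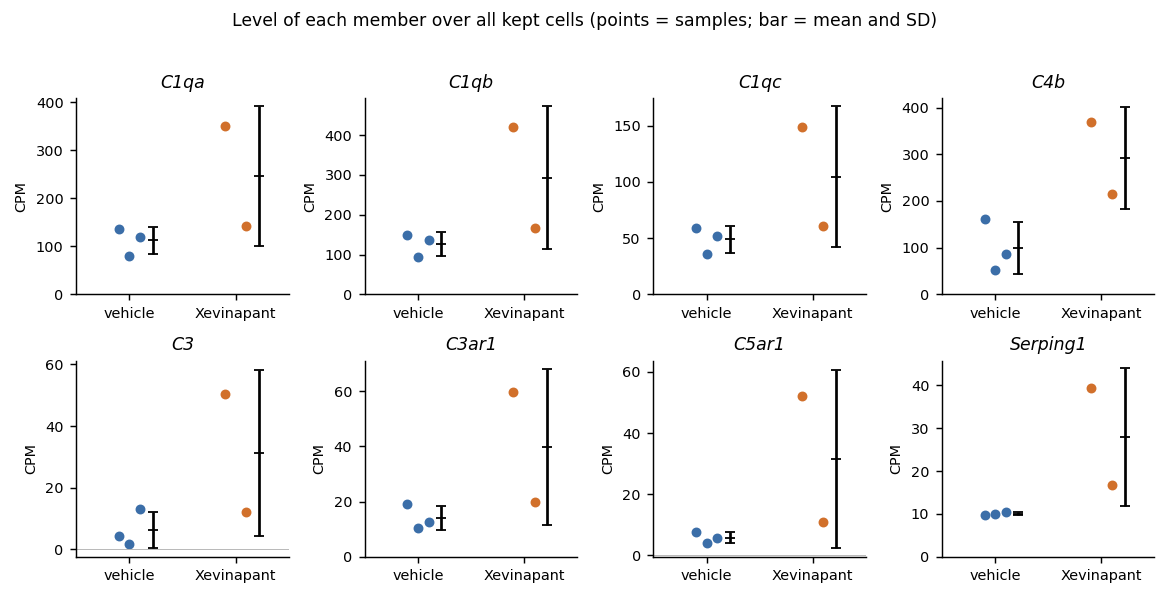
Level (CPM) of each gene over all kept barcodes of a sample, by group, with the mean and SD of 3 vehicle and 2 Xevinapant samples. Among kept barcodes, all genes but C3 were higher in both Xevinapant samples than in every vehicle sample, and Xevinapant 1+2 was the highest sample for each.

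The genes whose pattern over 13 cell classes was most like that of each member were found by Pearson's r of log2(CPM + 1), given as a description, since the points share libraries and depth. C1qa was nearest to C1qb (0.96), C1qc (0.95) and the microglial receptor gene Trem2 (0.92), and C1qb to C1qa, Adgre1 (0.96) and Lgmn (0.95). C1qc was nearest to C1qa, C1qb (0.93) and Cacna1d (0.89). C3ar1 was nearest to Slc7a8 (0.97), Ccl12 (0.95) and Ms4a6d (0.92), and C5ar1 to the second C5a receptor C5ar2 (0.93), Ccl6 (0.92) and Fcgr3 (0.92). Serping1 was nearest to Col8a1 (0.95), Cd248 (0.95) and Ms4a4d (0.94). C3 had Dram1 (0.87), Mgst1 (0.86) and Oas2 (0.85), and C4b had Steap3 (0.89), Mt2 (0.85) and Gaa (0.83), each lower than the nearest genes of the C1q chains.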

How the data were processed

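Fixed cells of 8 pooled tumor libraries were profiled with a 10x Genomics probe-based kit, and the authors deposited UMI counts per gene and barcode as whole numbers with no normalization, mapped to mm10. The labels name Cell Ranger 3.0 and the headers of the matrices 7.1.0. The authors' later filters in Seurat are not in the files. Barcodes were kept at 200 genes or more, at most 10% mitochondrial UMIs and a complexity of at least 0.8. Scrublet's highest scores were removed at 0.8% per 1000 barcodes, which took out 3905 of 54574 barcodes.

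A barcode took the class whose marker list had the highest rate of UMIs per 10000, relative to the mean of the 50 barcodes highest in that list, with at least 3 markers found, a relative rate of at least 0.1 and 2 times the next list. Malignant barcodes took the tumor state with the highest mean z score if it led by 0.25. Matrices close in cell makeup were joined by summing UMIs, as in earlier results of these data, and a sample entered a class with at least 10 cells. Summed counts were tested over all genes with edgeR 4.0.16 (TMM, its filter on low counts, quasi-likelihood F test, Benjamini-Hochberg at 0.05) in R 4.3.3, with the sample as a block between classes. For whole-tumor levels and shares of cells, a two-sided exact permutation test was used (scipy 1.17.1), where 3 against 2 samples cannot go below 0.1. A CPM of 3 UMIs in a class was taken as the floor. The edgeR fit of treatment was tested before use on simulated counts of microglia, malignant cells and macrophages. The fits in other classes, between classes, of differences of treatment effects and by DESeq2 were not tested in this way.

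Members were named by class where stated, and their levels in dendritic cells, NK cells, B cells and erythrocytes are not given. Up to 3 pathway genes per direction past the threshold were named. So were the 3 genes most like each member among those at 20 CPM or more in a class. The members and lists were chosen with earlier results of these data known. The alternatives comprised DESeq2 1.42.0, plain library sizes, all genes with a UMI, each matrix as 1 mouse, each sample left out, other gates, depth and mitochondrial limits, no doublet removal and other thinning depths. Leaving out barcodes shared between groups, leaving out T cells with macrophage or microglia UMIs, and a block on the matrix number were chosen after seeing the data. Software included scanpy 1.11.5, numpy 2.4.6 and pandas 2.3.3. Intervals and floors cover counting error only.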

Additional observations from a re-analysis of the deposited data

Results flagged for a closer look

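The treatment difference of C5ar1 was lower in macrophages than in monocytes by 2.05 on the log2 scale, as a tested difference of differences (log2 -2.05, SE 0.42, edgeR adjusted p = 0.04366, 4 samples). The call was lost when any 1 of the 4 samples was left out (edgeR adjusted p from 0.08403 to 0.6334). C5ar1 was higher in both classes in Xevinapant on average, by 1.25 times in macrophages and 4.58 times in monocytes.

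In some pairs of classes, among samples with at least 10 cells of a class, every Xevinapant sample lay on one side of every vehicle sample in one class and on the other side in the other, and these differences were not tested. The share of all genes with such a pattern was not counted. T cells and monocytes had 2 samples per group, where full separation gives an exact two-sided permutation p of only 0.3333. The C1q chains were lower in T cells and higher in the classes named next, with differences of the log2 ratios of mean CPM of -5.66 for C1qa against malignant cells, -5.72 for C1qa against monocytes, -4.93 for C1qb against malignant cells, -6.31 for C1qc against malignant cells and -6.15 for C1qc against macrophages. The T cell side of each rests on 4 samples, without vehicle 2, whose 6 T cells held 0 C1q UMIs and so do not lie above the Xevinapant samples, and most of its vehicle UMIs were in 1 cell of each sample. C3 was lower in monocytes and higher in microglia, a difference of -1.52, and higher in fibroblasts, a difference of -1.67. In microglia C3 stood at 36.9 to 71.9 CPM, where its edgeR adjusted p was 0.8019, and in fibroblasts its edgeR adjusted p was 0.8281.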

How the results depend on the processing

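Of 717 values recomputed, 652 were scored as the same. All 214 for members that differed between classes of the same samples kept their direction and side of the threshold. Another 294 were counts of members called, which have no direction or threshold, and 259 of these stayed at or near their first count. Of 72 whole-tumor levels and 48 shares of cells, 68 and 41 were scored as the same. With 3 samples against 2, or fewer, their exact permutation p cannot pass the threshold, so its side was fixed in advance. The number of members called in a treatment comparison was less stable. In T cells the 3 calls became 5 with no filter on low counts, 0 at a relative rate of 0.2, where the chains fell under the filter on low counts, and 2 to 3 when a sample was left out, with C1qc not called without vehicle 4 (log2 -4.16, edgeR adjusted p = 0.5616) and C1qa not called by DESeq2 (log2 -5.03, adjusted p = 0.09597). From 0 calls, DESeq2 gave 2 in malignant cells, 1 in monocytes, 1 in AC-like and 1 in MES-like cells. With no filter on low counts, 1 was called in each of endothelial cells, microglia, monocytes and pericytes and mural cells, 3 in AC-like and 5 in MES-like cells. Each matrix as 1 mouse gave 1 in malignant, 2 in AC-like and 1 in MES-like cells. A gate ratio of 3 gave 2 in endothelial cells, a limit of 3000 UMIs gave 1 in macrophages, and keeping doublets gave 1 in monocytes. With a sample left out the counts were 0 to 1 in endothelial cells (1 without Xevinapant 1+2), 1 to 2 in monocytes, where C5ar1 passed in each case, and 0 to 1 in MES-like cells (1 without vehicle 1+3). For the difference of the treatment effect between macrophages and monocytes it was 0 to 1, where the 1 was C4b without Xevinapant 3+4 (log2 -3.10, edgeR adjusted p = 0.03579) and never C5ar1, and for AC-like against OPC-like cells 1 to 2. That last count was 2 by DESeq2, 4 at a gate ratio of 3, 2 with no filter on low counts and 4 at a relative rate of 0.2. The causes were not tested.

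With each matrix as 1 mouse, the whole-tumor difference was 178 CPM for C4b, 24.2 for C3ar1, 25.2 for C5ar1 and 17.9 for Serping1, and the share of malignant cells with a C4b UMI differed by 14.7 percentage points (exact permutation p = 0.02857 each, the smallest that 4 against 4 allow). The C1q chains and C3 did not reach it (exact permutation p = 0.05714 to 0.08571), and per matrix the chains overlapped between the groups, as with C1qa at 128 CPM in Xevinapant 3 and 140.6 CPM in vehicle 1. Taking each matrix as 1 mouse counts the close pairs of matrices, joined elsewhere, as separate samples. These permutation p-values thus rest on more samples than the rest of the results. The difference in the share of microglia with a C1qa UMI turned to 0.128 percentage points with no thinning. With a sample left out, differences in shares ran from -3.33 to 14.5 points for C3 in fibroblasts (-0.485 without vehicle 2 and 8.57 without vehicle 4), -4.79 to 5.12 for C5ar1 in macrophages (-0.538 without Xevinapant 1+2) and -0.383 to 7.40 for Serping1 in fibroblasts, so their direction is not settled. The labels give no replicate numbers, and the matrix numbers did not pair the groups: in malignant cells, same-numbered matrices deviated from their group means with correlations of -0.32 to 0.33 over genes. With each matrix as 1 mouse and a replicate block on that number, chosen after seeing the data, edgeR called 1 member in pericytes and mural cells, 2 in AC-like and 3 in MES-like cells, and 0 in the other 8 comparisons it could be fitted in. T cells and monocytes could not be fitted at 3000 UMIs, nor T cells without macrophage or microglia UMIs. With 3 samples against 2 and 12 to 52 vehicle macrophages, small differences are beyond this depth.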
